A study of Rattus norvegicus with 23 samples.

Results

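The 7 receptor genes Htr3a, Htr3b, Tacr1, Drd2, Oprm1, Cnr1 and Casr are among those through which the area postrema can sense circulating or released chemical signals linked to nausea and vomiting. They were taken by name, as all probe sets on the array whose single gene symbol in the platform annotation was 1 of these 7. That gave 11 probe sets of the 31099 on the array, with 2 probe sets each for Htr3b, Tacr1, Oprm1 and Cnr1 and 1 each for Htr3a, Drd2 and Casr. No receptor probe set carried several symbols. RNA of the area postrema was measured on 23 Affymetrix Rat Genome 230 2.0 arrays, each holding a pool of 5 male rats. The groups were 5 arrays of the spontaneously hypertensive rat (SHR), 5 of the Wistar Kyoto rat (WKY), and, in Sprague Dawley rats, 4 arrays of animals dehydrated for 72 h, 5 of animals fasted for 48 h and 4 of controls. SHR and WKY rats were 10 to 13 weeks old and Sprague Dawley rats 10 to 12 weeks. Both comparisons with the Sprague Dawley controls use the same 4 control arrays. The labels give no treatment for the SHR and WKY animals. They name the amplification kit as the label of the SHR and WKY arrays and biotin on amino allyl UTP for the Sprague Dawley arrays. Each value is a pool, so that the spread between single animals is not seen.

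The area postrema is a small organ of the hindbrain with leaky capillaries, so that its cells meet toxins, hormones and drugs from the blood. In species that vomit it is part of the reflex that starts vomiting, while rats do not vomit and show aversion, reduced feeding and the eating of non-food items in its place. Several antiemetic drugs act on receptors of this set, among them antagonists of the serotonin 3 receptor, of the neurokinin 1 receptor and of the dopamine D2 receptor, and agonists of the cannabinoid CB1 receptor. Receptor protein on a nerve ending can be made from RNA in a cell body elsewhere, so an array of dissected tissue measures the RNA of local cells and of axons only as far as they carry it.

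Of 10 listed marker genes of area postrema neurons, 7 had a probe set with a single symbol, and none of these was dim. Over all 23 arrays the signal was 246.1 to 428.2 for Th and 183.4 to 372.8 for Dbh, the enzymes of dopamine and noradrenaline synthesis. Calcr, the calcitonin receptor that answers amylin here, ran from 95.6 to 166.0, and Glp1r, the receptor of glucagon-like peptide 1, from 19.5 to 49.3. The arrays also differed in neighbouring tissue. Ttr, the transthyretin gene that marks choroid plexus, was 44.2 to 144.3 in SHR and 73.5 to 189.1 in WKY. In the Sprague Dawley arrays it was 2714.8 to 7953.2 on 5 arrays, which were dehydrated arrays 1, 2 and 3, fasted array 4 and control array 3. It was 152.1 to 855.5 on the other 8 Sprague Dawley arrays. The summed signal of the 7 choroid plexus markers that were not dim was 265 to 380 in SHR and 340 to 534 in WKY, and it was 659 to 8793 in dehydrated, 391 to 7440 in fasted and 615 to 7296 in control arrays. For each of the 5 receptor probe sets that were not dim, the 5 arrays of high Ttr overlapped the other 8 Sprague Dawley arrays. Cnr1 at 1369677_at was 628.6 to 813.6 on those 5 arrays and 579.7 to 752.1 on the other 8. Drd2 was 112.2 to 155.1 on those 5 and 131.8 to 180.6 on the other 8. Such overlap does not show that tissue content leaves the receptor signals unchanged. The part of tissue content in them was not tested, apart from an alternative fit with the choroid plexus markers as a covariate.

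The receptors fell into a measurable and a dim set. All signals are on the authors' linear scale, on which every array had a trimmed mean of 100. A probe set counted as dim if, averaged over the arrays compared, it was under the 40th percentile of all probe sets. This limit corresponds to a signal of 29.0 in the SHR and WKY arrays, 27.4 in the Sprague Dawley arrays and 28.0 over all 23. By this rule 5 probe sets of 4 genes (Tacr1, Drd2, Cnr1 with both probe sets, and Casr) were kept in both fits. The other 6, which include every probe set of Htr3a, Htr3b and Oprm1, were dim in both fits. Over all 23 arrays the lowest kept probe set was Cnr1 1387674_at at the 56.7th percentile, well above the limit, and the highest dim one was Htr3a 1369428_a_at at the 34.6th. Each of the 5 kept probe sets lay above the 40th percentile of its own array on 23 of 23 arrays. The percentiles rank a probe set's signal among all probe sets and depend on how well its probes bind, so they do not order the receptors by abundance. The table used here holds no detection calls. Dim is therefore a low rank, whose distance to background was not measured, and it does not mean absent.

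**Figure D1:**
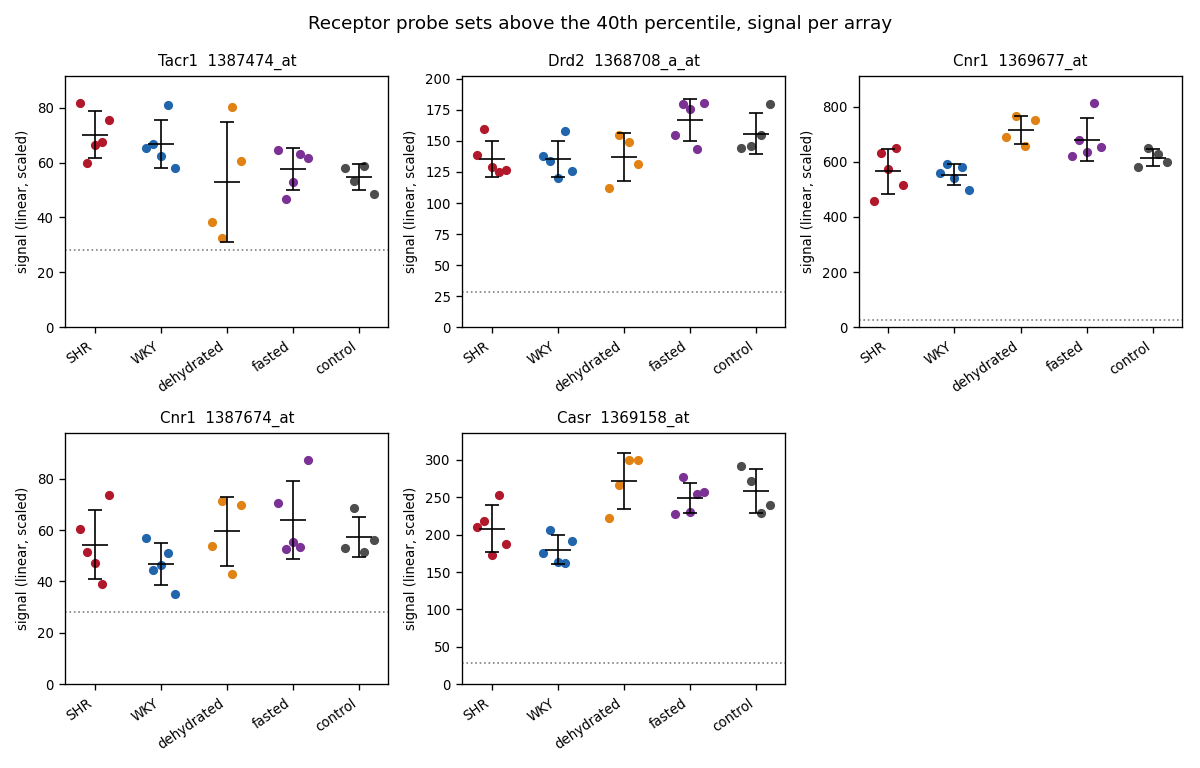
Signal of the 5 kept receptor probe sets on each array (linear scale, all arrays scaled to a trimmed mean of 100), in SHR, WKY, dehydrated, fasted and control groups from left to right. Points are arrays of 5 pooled rats, bars are the group mean ± SD, and the dotted line is a signal of 28.0, the 40th percentile over 23 arrays; the 5 WKY arrays of Casr lie at 162.1 to 206.3, below all 13 Sprague Dawley arrays.

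No receptor passed an adjusted p of 0.05 (limma, Benjamini-Hochberg over 18625 probe sets) in any of the 4 comparisons. In SHR against WKY, 0 of 5 kept probe sets passed, where 5.06% of all probe sets tested did. The same count was 0 of 5 in fasted against control, with 0.0215% of all probe sets, 0 of 5 in dehydrated against control, with 0.166%, and 0 of 5 in dehydrated against fasted, with 0.0322%. In the Sprague Dawley comparisons so few probe sets passed at all that a count of 0 among 5 says little about the receptors. At an unadjusted p of 0.05 the counts were 0 of 5 in SHR against WKY and 0 of 5 in fasted against control, set beside 17.2% and 7.19% of all probe sets. They were 1 of 5 in dehydrated against control (Cnr1) and 1 of 5 in dehydrated against fasted (Drd2), set beside 11.7% and 10.0%.

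The intervals of the main fit describe how large a change could be for each kept probe set taken singly. They do not cover the dim probe sets or the alternative fits. For SHR over WKY the 95% intervals of the 5 probe sets reached from 0.89 to 1.34 times at their outer ends, and for fasted over control from 0.83 to 1.32. They reached from 0.74 to 1.31 for dehydrated over control and from 0.72 to 1.24 for dehydrated over fasted. These folds come from log2(signal + 16), which understates the ratio at low signal. The median difference over the 5 probe sets was 0.06 on the log2 scale in SHR minus WKY, where the median over all probe sets was 0.005. It was 0.09 in fasted minus control, 0.03 in dehydrated minus control and -0.08 in dehydrated minus fasted, where all probe sets had medians of 0.003, -0.009 and -0.009.

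**Figure D2:**
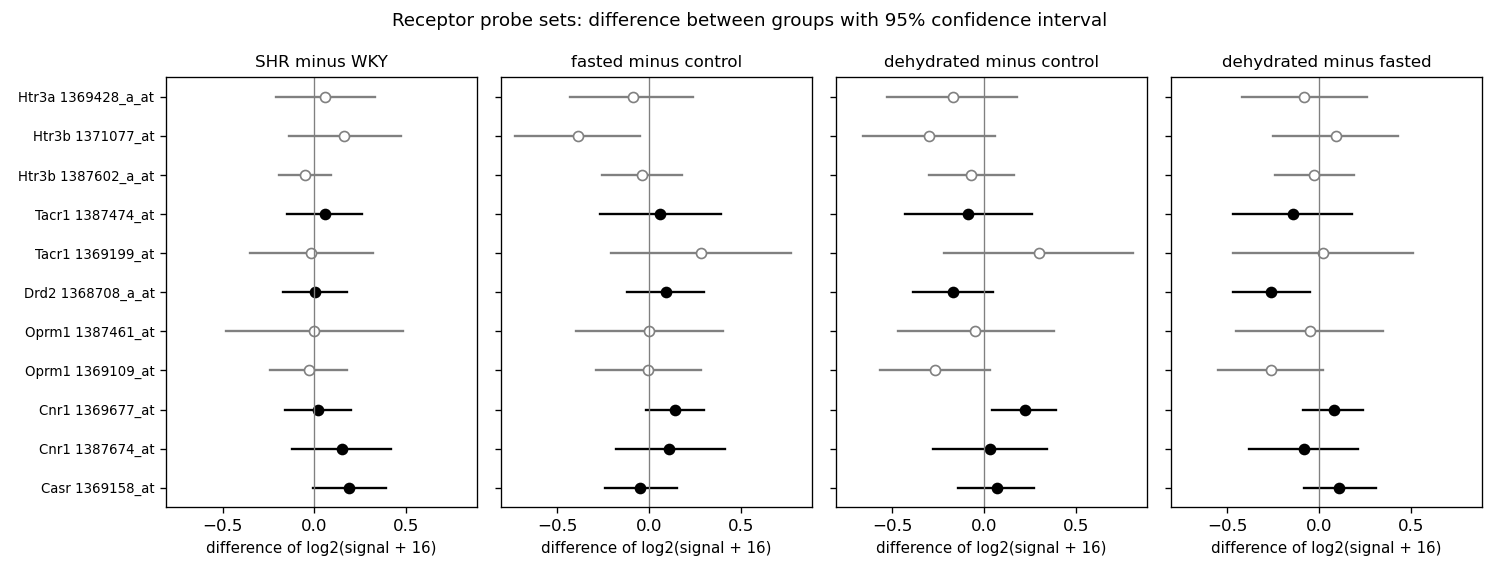
Difference of log2(signal + 16) between groups for all 11 receptor probe sets, one panel per comparison, with the 95% confidence interval as a line. Filled points are the 5 kept probe sets from the filtered fit and open points the 6 dim ones from the fit without a filter; Cnr1 1369677_at in dehydrated minus control (0.22) and Drd2 in dehydrated minus fasted (-0.26) are the filled points whose interval leaves 0, and no point passes the adjusted threshold.

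Htr3a and Htr3b encode the subunits of the serotonin 3 receptor, the ligand-gated ion channel of this set. Htr3a forms channels alone, while Htr3b needs Htr3a to reach the cell surface, and in this region much of the receptor sits on vagal nerve endings whose cell bodies lie outside the brain. Htr3a (1369428_a_at) had signals of 23.6, 26.8, 18.8, 28.6 and 28.6 in SHR and 23.7, 14.3, 28.4, 29.0 and 23.4 in WKY. It had 19.5, 12.8, 21.6 and 22.5 in dehydrated, 28.8, 11.4, 27.8, 16.2 and 23.3 in fasted and 29.1, 19.6, 22.3 and 23.1 in control arrays. The 5 groups overlapped throughout, and on 0 of 23 arrays did Htr3a reach the 40th percentile of its array. Htr3b at 1371077_at had 13.3, 8.5, 7.1 and 10.1 in dehydrated, 11.3, 4.9, 12.3, 4.0 and 9.5 in fasted and 15.3, 25.4, 10.7 and 12.8 in control arrays. It ranged from 12.0 to 31.7 in SHR and from 10.9 to 17.8 in WKY. The fasted arrays averaged 8.4 ± 3.8 (SD, n = 5) and the controls 16 ± 6.5 (SD, n = 4), yet the highest fasted arrays lay above the lowest control. In the limma fit without a filter the difference was -0.39 on the log2 scale (SE 0.162, adjusted p = 0.724). The other Htr3b probe set, 1387602_a_at, stayed between 0.9 and 7.0 on all arrays, at the 3.3rd percentile. No difference can be read at such levels. Across the 23 arrays the deviations of both Htr3b probe sets from their group means did not run together (r = -0.27, as a description).

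Tacr1 encodes the neurokinin 1 receptor, the G protein-coupled receptor for substance P. At 1387474_at it had signals of 81.7, 59.8, 66.3, 67.3 and 75.3 in SHR and 65.3, 66.9, 62.5, 81.1 and 58.0 in WKY. SHR and WKY overlapped almost completely, and the log2 difference was 0.06 (95% interval -0.15 to 0.26, limma adjusted p = 0.833). Tacr1 had 38.2, 32.5, 80.2 and 60.7 in dehydrated, 64.4, 46.6, 52.8, 63.0 and 61.8 in fasted and 57.9, 53.2, 58.8 and 48.5 in control arrays. The dehydrated group had the widest spread, with a mean of 52.9 ± 21.9 (SD, n = 4) against 54.6 ± 4.7 (SD, n = 4) in controls, and it held both the lowest and the highest Tacr1 signal of the Sprague Dawley arrays. Dehydrated minus control was -0.09 (95% interval -0.43 to 0.26, adjusted p = 0.884), and leaving out single arrays moved it between -0.26 and 0.06. All 5 SHR arrays, from 59.8, lay above all 4 control arrays, up to 58.8, as was the case for 8.05% of all probe sets. These groups differ in strain and in the label text at once, which cannot be told apart. The other Tacr1 probe set, 1369199_at, was dim, with 1.8 to 26.8 over the 23 arrays. Its deviations from the group means went with those of 1387474_at (r = 0.58 over 23 arrays, as a description of 2 probe sets read on the same arrays).

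Tac1, the precursor of substance P and so of the main ligand of Tacr1, was the single gene that passed among all the ligand, receptor and signalling genes listed around the 7 receptors. Its signals at 1369309_a_at were 107.7, 154.8, 143.2, 144.1 and 130.7 in SHR and 289.1, 317.6, 217.7, 234.9 and 241.6 in WKY. The highest SHR array lay well below the lowest WKY array, and the means were 136.1 ± 18.0 in SHR and 260.2 ± 41.6 in WKY (SD, n = 5 each). Tac1 fell by 0.86 on the log2 scale (SE 0.103, limma adjusted p = 4.08e-05), while the receptor showed 70.1 ± 8.5 in SHR and 66.8 ± 8.7 in WKY (SD, n = 5 each). In the Sprague Dawley arrays Tac1 was 66.0, 51.6, 66.3 and 42.4 in dehydrated, 52.1, 46.4, 88.3, 122.1 and 70.4 in fasted and 69.5, 65.1, 75.3 and 96.9 in control arrays. Dehydrated minus control was -0.36 for Tac1 (adjusted p = 0.503). Some cell type markers changed between the strains too. In SHR, 3 of 10 fibroblast, 2 of 6 choroid plexus and 3 of 9 microglia markers fell, 1 of 4 markers of the neighbouring vagal nuclei rose, and 1 of 7 markers of area postrema neurons rose, where 5.06% of all probe sets passed in either direction. The last was Cartpt, the precursor of the CART peptide, with 2033.1 in SHR and 1447.7 in WKY on average (log2 difference 0.48, limma adjusted p = 2.2e-05). Of the others, Prph, a gene of motor and peripheral neurons, averaged 72.6 in SHR and 37.4 in WKY, and Col1a2, a fibroblast collagen gene, 1227.5 in SHR and 1948.8 in WKY. The summed signal of 12 neuron markers was 9993 to 11125 in SHR and 10297 to 10858 in WKY. With the mean of the choroid plexus markers as a covariate, an alternative chosen after the data were seen, the Tac1 difference was -0.93 (limma adjusted p = 0.00102). The part of the other markers in it was not tested. In pooled tissue, fewer Tac1 cells and less Tac1 RNA per cell cannot be told apart. Tac1 was read by 1 probe set only. Since probe sequences were not used, a difference between SHR and WKY in how its probes bind was not examined.

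Drd2 encodes the dopamine D2 receptor, which couples to inhibitory G proteins and is blocked by several antiemetics. Its probe set 1368708_a_at had signals of 138.9, 159.4, 128.7, 124.7 and 126.5 in SHR and 137.8, 134.0, 120.2, 158.2 and 125.9 in WKY. The means differed by less than 1 signal unit, at 135.6 ± 14.4 in SHR and 135.2 ± 14.6 in WKY (SD, n = 5 each), and the interval of the ratio ran from 0.89 to 1.14. Drd2 had 112.2, 155.1, 149.4 and 131.8 in dehydrated, 154.8, 179.7, 175.7, 143.7 and 180.6 in fasted and 144.0, 145.9, 154.6 and 179.4 in control arrays. Dehydrated arrays 2 and 3 reached into the fasted range, so the groups overlapped. Dehydrated arrays 1, 2 and 3 and fasted array 4 are among the arrays with high Ttr. A fit with the mean of the choroid plexus markers as a covariate is among the alternatives given below. The part of choroid plexus tissue in the Drd2 values was not tested further. Dehydrated minus fasted was -0.26 on the log2 scale (95% interval -0.47 to -0.05, unadjusted p = 0.0165, limma adjusted p = 0.405). As a measure of RNA quality, the Gapdh control probe sets differed (3' over 5', log2) by 0.409 on average in dehydrated and 0.222 in fasted arrays. With this ratio as a covariate the Drd2 difference was -0.29 (limma adjusted p = 0.833). The ratio itself differed between these groups on average, so RNA quality and treatment cannot be told apart by that fit. The adjusted p also depends on the other probe sets, of which 1019 had an unadjusted p below 0.05 in that fit and 1862 in the main fit. Over all alternatives the Drd2 difference ran from -0.32 to -0.18. Dehydrated minus control was -0.17 (adjusted p = 0.538) and fasted minus control 0.09 (adjusted p = 0.891). Dbh, the enzyme that turns dopamine into noradrenaline, had 229.0, 221.5, 241.3 and 320.2 in dehydrated and 321.5, 297.0, 351.6, 326.0 and 334.0 in fasted arrays. It too did not pass, at -0.36 (adjusted p = 0.272).

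Oprm1 encodes the mu opioid receptor, the target of morphine and of the enkephalins. At 1387461_at it had signals of 47.8, 5.8, 25.9, 34.5 and 34.3 in SHR and 22.3, 22.4, 29.6, 31.7 and 30.5 in WKY. SHR array 2 was the lowest of all 23 arrays and SHR array 1 the highest. Oprm1 had 18.7, 21.6, 11.9 and 21.6 in dehydrated, 27.8, 14.6, 24.5, 9.0 and 24.4 in fasted and 20.1, 13.1, 32.8 and 14.1 in control arrays. On 6 of 23 arrays this probe set reached the 40th percentile of its array, so it was the least dim of the dim ones by that count. The other Oprm1 probe set, 1369109_at, had 3.1, 3.7, 6.4 and 1.0 in dehydrated and 6.2, 14.7, 4.8 and 5.2 in control arrays, and it stayed between 6.4 and 11.6 in SHR and between 8.2 and 11.4 in WKY. Dehydrated minus control was -0.27 at 1369109_at in the limma fit without a filter (SE 0.143, adjusted p = 0.569). The deviations of both Oprm1 probe sets from their group means showed no correlation over the 23 arrays (r = 0.00). Penk, the enkephalin precursor and so a source of ligands of Oprm1, lay far above the dim limit. It had 2415.6 ± 126.1 in dehydrated and 2264.9 ± 62.0 in control arrays (SD, n = 4 each), and it did not pass in any comparison.

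**Figure D3:**
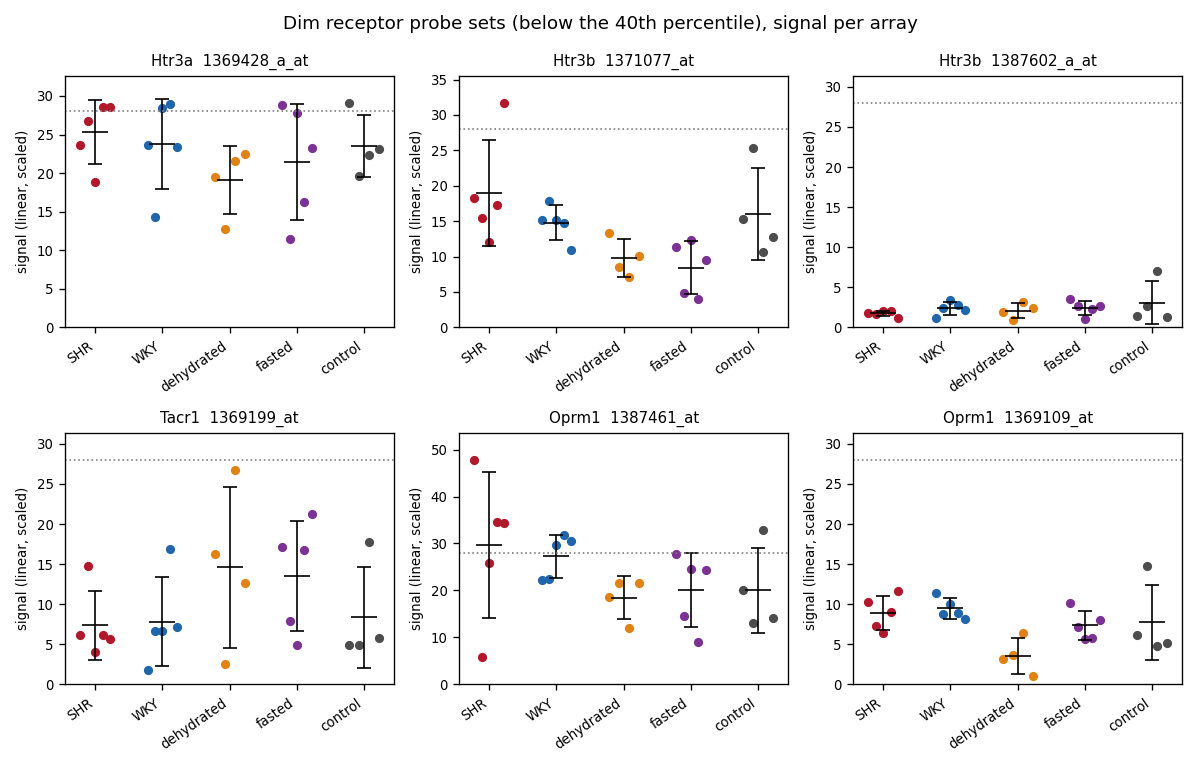
Signal of the 6 dim receptor probe sets on each array (linear scale), in SHR, WKY, dehydrated, fasted and control groups from left to right. Points are arrays of 5 pooled rats, bars are the group mean ± SD, and the dotted line is a signal of 28.0, the 40th percentile over 23 arrays; most points lie below it, and Oprm1 1387461_at has arrays on both sides.

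Cnr1 encodes the cannabinoid CB1 receptor, an inhibitory receptor found mainly on nerve endings. At 1369677_at, the receptor probe set with the highest percentile (96.1), it had signals of 690.4, 765.3, 657.8 and 752.1 in dehydrated and 579.7, 649.0, 628.6 and 599.3 in control arrays. Every dehydrated array lay above every control array, although the lowest dehydrated and the highest control array differed by little. Among all probe sets 3.31% had dehydrated arrays wholly above the controls. The means were 716.4 ± 50.9 in dehydrated and 614.1 ± 30.7 in control arrays (SD, n = 4 each), a log2 difference of 0.22 (95% interval 0.04 to 0.39, 1.16-fold, unadjusted p = 0.0161, limma adjusted p = 0.311). It did not pass. Fasted arrays had 619.6, 680.7, 635.8, 813.6 and 652.5. They overlapped both the control and the dehydrated range, and the highest, array 4, is one of the arrays with high Ttr. Fasted minus control was 0.14 (adjusted p = 0.723), and 0.07 without that array, and dehydrated minus fasted was 0.08 (adjusted p = 0.793). Beside this, the summed signal of the 12 neuron markers was 10898 to 12036 in dehydrated, 10680 to 11719 in fasted and 10436 to 10632 in control arrays. Such a sum is weighted to the brightest markers. The mean of their centred log2 values was 0.07 (SD 0.12) in dehydrated, 0.06 (SD 0.06) in fasted and 0.00 (SD 0.05) in control arrays. In dehydrated minus control 9 of the 12 were positive, 3 were negative and 0 passed (lowest limma adjusted p = 0.303). Among all probe sets 47.6% were positive and 0.166% passed. The part of neuronal content in the Cnr1 difference was not tested. With the mean of the choroid plexus markers as a covariate, an alternative chosen after the data were seen, dehydrated minus control was 0.19 (adjusted p = 0.428). Over all alternatives it ran from 0.12, with the mean of both Cnr1 probe sets, to 0.25. The unadjusted p was no longer below 0.05 with that mean, with only control arrays 3 and 4, or without dehydrated array 2.

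In the strain comparison Cnr1 at 1369677_at had 456.5, 633.6, 574.5, 650.5 and 515.4 in SHR and 560.3, 591.4, 539.6, 580.2 and 496.1 in WKY, so that SHR arrays lay on both sides of the WKY range. The log2 difference was 0.02 (95% interval -0.16 to 0.20, limma adjusted p = 0.936). The other Cnr1 probe set, 1387674_at, had 53.8, 71.5, 43.0 and 69.6 in dehydrated, 70.7, 52.8, 55.3, 53.4 and 87.3 in fasted and 53.1, 68.7, 51.3 and 56.0 in control arrays. Here the dehydrated arrays lay on both sides of the controls, with a difference of 0.03 (95% interval -0.28 to 0.34, adjusted p = 0.962). That interval also holds the 0.22 of the first probe set. The deviations of both from the group means did not run together (r = -0.15 over 23 arrays). In SHR minus WKY 1387674_at gave 0.15 (adjusted p = 0.612). Over its alternatives this difference ran from 0.06, without SHR array 5, to 0.37, with the choroid plexus markers as a covariate (limma adjusted p = 0.304).

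Casr encodes the calcium-sensing receptor, which reads extracellular calcium and also responds to amino acids and polyamines. Its probe set 1369158_at had signals of 209.5, 218.8, 172.3, 252.9 and 186.8 in SHR and 175.6, 206.3, 163.0, 162.1 and 191.9 in WKY. SHR arrays reached higher, and 3 of 5 lay above the whole WKY range. The means were 208.1 ± 31.1 in SHR and 179.8 ± 19.1 in WKY (SD, n = 5 each), a log2 difference of 0.19 (95% interval -0.0083 to 0.39, limma adjusted p = 0.319), which did not pass. Without SHR array 4 it was 0.12 (adjusted p = 0.569), and without SHR array 3 it was 0.25 (adjusted p = 0.186). These were the lowest and the highest value over all alternatives. Casr had 221.9, 265.7, 299.8 and 299.8 in dehydrated, 227.7, 276.6, 230.4, 254.8 and 256.8 in fasted and 292.3, 271.1, 229.2 and 240.2 in control arrays. These 3 groups overlapped, with dehydrated minus control at 0.07 (95% interval -0.14 to 0.27, adjusted p = 0.838) and fasted minus control at -0.05 (95% interval -0.24 to 0.15, adjusted p = 0.953). The 5 WKY arrays, at 162.1 to 206.3, lay below all 13 Sprague Dawley arrays, at 221.9 to 299.8. Casr was the single member of which either strain lay wholly outside the Sprague Dawley range, and 4.37% of all probe sets had WKY arrays wholly below it. No test is given for this, since strain and the label text differ together between these arrays and cannot be told apart.

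RefSeq promoter windows are shown for 2 genes, Tac1, which passed in SHR against WKY, and Casr, whose WKY arrays lay apart from the Sprague Dawley arrays where strain and label text cannot be told apart. They run from 250 bases before to 50 after the gene start in assembly GRCr8, plus strand, 5′ to 3′. Capitals mark CG dinucleotides. Casr lies at chr11:77740364-77740663 and Tac1 at chr4:36645333-36645632.
Casr: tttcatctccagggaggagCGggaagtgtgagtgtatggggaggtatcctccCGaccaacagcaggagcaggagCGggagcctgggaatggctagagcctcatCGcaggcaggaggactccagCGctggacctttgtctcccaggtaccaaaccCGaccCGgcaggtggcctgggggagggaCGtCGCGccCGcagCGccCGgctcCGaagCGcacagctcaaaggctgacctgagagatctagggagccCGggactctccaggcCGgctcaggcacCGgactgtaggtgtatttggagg
Tac1: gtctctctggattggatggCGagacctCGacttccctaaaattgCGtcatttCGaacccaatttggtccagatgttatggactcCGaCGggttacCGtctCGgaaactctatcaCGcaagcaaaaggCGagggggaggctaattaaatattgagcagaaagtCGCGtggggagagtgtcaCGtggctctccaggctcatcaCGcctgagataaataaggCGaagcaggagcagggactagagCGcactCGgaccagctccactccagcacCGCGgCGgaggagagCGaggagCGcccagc
The Casr window holds 18 CG and the Tac1 window 22, more than 72.5% and 79.0% of the 33469 promoter windows in the table, whose median is 7. The letters TGACG, the core of the cAMP response element, were searched on both strands. They occur 1 time in the Tac1 window and 0 times in the Casr window, and 21.2% of all windows hold them. This is a description of the reference sequence, which was made from neither strain, and not of binding or of a difference between SHR and WKY. Promoter entries were found for 5 of the 7 receptor genes.

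Across the 5 groups the order of the means differed from receptor to receptor. Drd2 was highest in fasted (166.9 ± 16.7, SD, n = 5), then control, dehydrated, SHR and WKY. Casr was highest in dehydrated (271.8 ± 36.9, SD, n = 4), then control, fasted, SHR and WKY. Cnr1 1369677_at ran from dehydrated through fasted (680.4 ± 77.8, SD, n = 5), control and SHR to WKY. Cnr1 1387674_at ran from fasted through dehydrated, control and SHR to WKY. SHR and WKY thus came last for Drd2, Casr and both Cnr1 probe sets. Tacr1 1387474_at had the reverse placing of the strains, with SHR and WKY above fasted, control and dehydrated. Strain and label text differ together in this placing and cannot be told apart. For all 11 probe sets the arrays of groups next to each other in the order overlapped, and their means lay closer than the SDs of both groups together, so neighbours cannot be put in order beyond their spread.

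The receptors shared little from array to array once group means were taken off. The correlation of such deviations over 23 arrays was 0.24 between Cnr1 1369677_at and Casr, 0.11 between Drd2 and Casr and 0.02 between Tacr1 and Drd2. Without that step Cnr1 1369677_at and Casr gave 0.64, as both were higher in Sprague Dawley arrays. All arrays were used for every pair, so these are descriptions, and weak ones. Among 13748 other probe sets, those most like Tacr1 1387474_at were Nanp (0.83) and Kctd18 (0.77), and those most like Drd2 were Gpr137b (0.78) and Ppp2r3a (0.78). Among 13747, Cnr1 1369677_at was followed most closely by Rbms3 (0.80) and Trip12 (0.79), and 1387674_at by Pms2 (0.79) and Pbx4 (0.77). Casr was most like Dtx3l (0.85) and Tmem164 (0.80), for which the correlation with group means left in was -0.24 in both cases. They are the highest of many values and were chosen for their size.

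Most of the further receptors listed beside the 7 were dim. Of 35 further serotonin, tachykinin, dopamine, opioid, cannabinoid, muscarinic, histamine and related receptors, 31 had a probe set with a single symbol, and 23 of these were dim over all 23 arrays. Of those kept, 8 in the strain fit and 7 in the Sprague Dawley fit, 0 passed in each of the 4 comparisons. Among all probe sets 5.06% passed in SHR against WKY and 0.0215% in fasted against control. The share was 0.166% in dehydrated against control and 0.0322% in dehydrated against fasted. At an unadjusted p of 0.05 the count was 0 in each comparison. In the same order, 17.2%, 7.19%, 11.7% and 10.0% of all probe sets were below it. Counts of 0 among so few genes say little. The lowest adjusted p was 0.4 in SHR against WKY and 0.496 in dehydrated against control. Htr2c, a serotonin receptor that choroid plexus cells make in quantity, spread the most. It had 137.5, 165.9, 314.8 and 40.4 in dehydrated, 67.5, 59.8, 45.3, 537.4 and 53.4 in fasted and 42.4, 55.4, 253.2 and 53.6 in control arrays. The 5 Sprague Dawley arrays with the highest Htr2c (137.5 to 537.4, against 40.4 to 67.5 on the other 8) were the 5 with the highest Ttr. Dehydrated minus control was 0.68 for Htr2c on the log2 scale and did not pass. The part of choroid plexus tissue in these values was not examined here.

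Of the genes that make, release or break down the ligands, 15 of 26 listed were tested in the strain fit and 16 in the Sprague Dawley fit. Tac1 fell in SHR against WKY, so 1 of 15 fell and 0 rose, where 5.06% of all probe sets passed in either direction. The median log2 difference over the list was -0.01. In each Sprague Dawley comparison 0 of 16 passed. Of all probe sets 0.0215% passed in fasted against control, 0.166% in dehydrated against control and 0.0322% in dehydrated against fasted. With shares so small, a count of 0 says little. At an unadjusted p of 0.05 the counts were 3 of 15 in SHR against WKY, 2 of 16 in fasted against control, 4 of 16 in dehydrated against control and 2 of 16 in dehydrated against fasted, beside 17.2%, 7.19%, 11.7% and 10.0% of all probe sets. Mgll, the lipase that breaks down the endocannabinoid 2-arachidonoylglycerol, came near, with 121.0 ± 8.6 in SHR and 98.3 ± 5.3 in WKY (SD, n = 5 each, log2 difference 0.26, adjusted p = 0.0522). Th, which makes the dopamine precursor, had 369.5 ± 35.1 in SHR and 371.2 ± 35.2 in WKY (SD, n = 5 each). Pdyn, the dynorphin precursor, averaged 150.9 ± 49.7 in dehydrated and 98.4 ± 37.5 in control arrays (SD, n = 4 each, adjusted p = 0.412). Among 40 listed partners and signalling proteins of such receptors, 30 were tested and 0 passed in each of the 4 comparisons. These counts stand beside the same adjusted shares of all probe sets as for the ligand genes. The medians lay between -0.04 and 0.01. The unadjusted counts in the same order of comparisons were 4, 1, 7 and 4 of 30. They are to be read against 17.2%, 7.19%, 11.7% and 10.0% of all probe sets. Arrb1, the beta-arrestin that takes activated receptors off the G protein, averaged 167.4 ± 7.2 in SHR and 199.0 ± 13.0 in WKY (SD, n = 5 each, log2 difference -0.23, adjusted p = 0.0563). Gnao1, an inhibitory G protein alpha subunit, averaged 225.3 ± 14.6 in dehydrated and 177.6 ± 13.4 in control arrays (SD, n = 4 each, adjusted p = 0.155). Genes with an adjusted p above 0.05 named here were chosen after their values were seen.

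**Figure D4:**
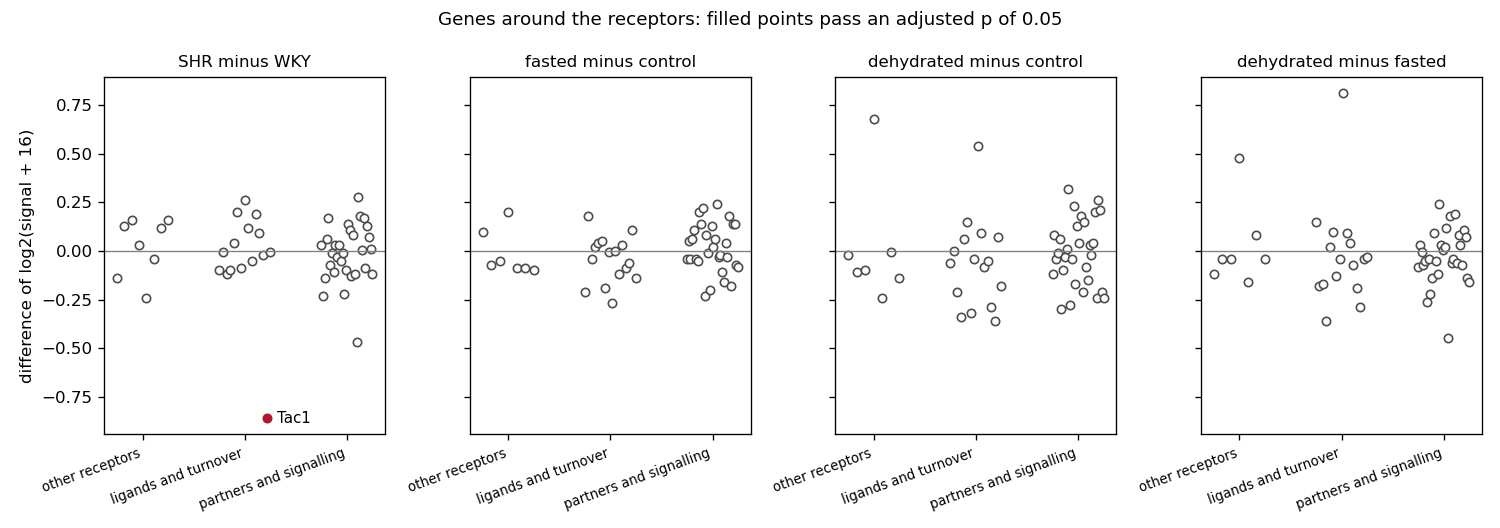
Difference of log2(signal + 16) for each tested gene of 3 lists (other receptors, ligands and their turnover, partners and signalling), one panel per comparison. Each point is 1 gene and a filled point passes an adjusted p of 0.05; Tac1 in SHR minus WKY (-0.86) is the single filled point.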

How the data were processed

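RNA from 23 arrays, each a pool of 5 male rats, was analysed in the groups that the sample titles give. Tissue was stored in RNAlater and its RNA amplified with a MessageAmp II kit, per the labels' protocols. The authors deposited linear intensity values, made with GCOS 1.2 according to the submitters' processing notes; which settings the software ran with is not given there. The mean left after removing 2% of values at each end was 100 on every array, so no further normalization was applied. Of 31099 probe sets 57 are controls, 20832 carry 1 gene symbol in the platform annotation, 436 several and 9780 none. A probe set ending in _a_at can read several transcripts of 1 gene. Probe sequences were not used here.

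Tests used log2(signal + 16). Controls and the probe sets with a mean under the 40th percentile were dropped, and 18625 remained. Groups were compared two-sided with limma 3.58.1 under R 4.3.3 (lmFit, then eBayes with its trend and robust options), with Benjamini-Hochberg adjustment over these and a threshold of 0.05. SHR minus WKY used its 10 arrays, and 1 model of the 13 Sprague Dawley arrays gave the other 3 comparisons. Dim probe sets were tested in the alternative without a filter. The p-values measure the spread between pools, and the number of arrays limits the precision. The script was tested on simulated data. The receptors and the gene lists were chosen with earlier results of these data known. Each receptor probe set is named, each gene that passes in the lists of other receptors, ligands and partners, and the 2 genes most like each kept receptor probe set; other genes, cell type markers among them, stand beside a result or are said to be chosen after their values were seen. In lists, the probe set of highest mean stands for its gene. Python 3.11.15, pandas 2.3.3, numpy 2.4.6, scipy 1.17.1 and matplotlib 3.10.9 served for annotation and plots. Promoter windows came from RefSeq (GRCr8).

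Each fit was repeated with quantile normalization, with pseudocounts of 1 and 64, unfiltered and with a 60th percentile filter, with plain eBayes, with 1 model of all 23 arrays, with the compared groups alone, with control arrays 3 and 4 alone (the other 2 controls lack a closing phrase of the label text), with the replicate number as a block, with the 3' to 5' Gapdh ratio as a covariate, with gene means, and without each array in turn. A choroid plexus marker mean as a covariate was chosen after the data were seen.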

Additional observations from a re-analysis of the deposited data

Results flagged for a closer look

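Each receptor probe set was checked in each group of 4 or 5 arrays for 1 array far from the rest, which chance gives in about 1 of 20 groups; 3 of 55 groups had one, and all lie at dim probe sets. Tacr1 1369199_at had a signal of 14.8 on SHR array 2, where the other SHR arrays had 4.0 to 6.2. The same probe set had 17.8 on control array 3, one of the arrays with high Ttr, where the other controls had 4.9 to 5.8. Oprm1 1369109_at had 14.7 on control array 2, where the other controls had 4.8 to 6.2.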

How the results depend on the processing

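The count of receptor probe sets past the threshold was 0 in every comparison under every alternative run, and Tac1 in SHR minus WKY passed under the 20 alternatives run for its probe set (gene means were not among them), from -0.93 to -0.69 on the log2 scale. Counts over all probe sets moved more. For SHR minus WKY (942) the count was 419 with gene means and 420 with the choroid plexus covariate. For fasted minus control (4) it was 2 without a filter, 2 with eBayes without trend and robust, 2 with gene means, 0 with only control arrays 3 and 4 and 9 with the choroid plexus covariate. For dehydrated minus control (31) it was 15 without a filter, 10 with eBayes without trend and robust, 74 with all 23 arrays in 1 model, 2 with only control arrays 3 and 4 and 20 with the choroid plexus covariate. For dehydrated minus fasted (6) it was 3 with eBayes without trend and robust, 2 with the Gapdh covariate and 3 with gene means. Leaving out each array in turn gave 741 to 1012, 2 to 6, 9 to 42 and 2 to 10 for the 4 comparisons in this order. Counts moved most in the second comparison without control 2, fasted 3 or fasted 4 (2 each), in the third without control 4 or dehydrated 1 (9 each), control 2 or dehydrated 2 (12 each) or control 1 (15), and in the fourth without dehydrated 1 (2) or fasted 1 (10).

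With the replicate number as a block the counts were 1073, 3, 15 and 1. Arrays of the same number were not alike (r from -0.01 to 0.27 in SHR and WKY and from -0.17 to 0.06 elsewhere), so the numbers were not taken to pair the samples. An array was most like the one of its own number for 2 of 5 SHR arrays against WKY, 0 of 4 fasted and 1 of 4 dehydrated arrays against control, and 1 of 4 dehydrated arrays against fasted.

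Signs of receptor differences that had not passed turned in a few cases, the cause of which was not tested. With the choroid plexus covariate SHR minus WKY was -0.02 for Drd2 and -0.05 for Cnr1 1369677_at. With the Gapdh covariate Tacr1 was -0.06 in fasted minus control and 0.05 in dehydrated minus fasted, and Cnr1 1387674_at was -0.0066 in dehydrated minus control. With only control arrays 3 and 4, fasted minus control was -0.0024 for Drd2 and 0.08 for Casr. With gene means Cnr1 was -0.0023 in dehydrated minus fasted. Under the replicate block Cnr1 1387674_at was 0.02 in dehydrated minus fasted. With arrays left out, SHR minus WKY ran from -0.05 to 0.06 for Drd2 and from -0.03 to 0.09 for Cnr1 1369677_at. Fasted minus control ran from -0.10 to 0.01 for Casr and from -0.22 to 0.06 for Tac1. Dehydrated minus control ran from -0.26 to 0.06 for Tacr1 and from -0.05 to 0.14 for Cnr1 1387674_at, and dehydrated minus fasted from -0.32 to 0.0057 for Tacr1 and from -0.16 to 0.03 for Cnr1 1387674_at. Low signals limit Htr3a, Htr3b and Oprm1, where differences are compressed.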
